A study of Mus musculus with 6 samples.

Results

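The genes described here let pyruvate into the mitochondrion, convert it to acetyl-CoA, burn that in the tricarboxylic acid (TCA) cycle and, at succinate dehydrogenase, which is also complex II of the respiratory chain, hand electrons to coenzyme Q. They were chosen by name: 34 gene names out of the 43074 in the deposited tables, covering pyruvate entry, the pyruvate dehydrogenase complex with its kinases and phosphatases, TCA enzymes, and complex II with its assembly factors. RNA came from soleus, a postural muscle of the mouse hindlimb, in 3 libraries labelled WT, which the series text calls control, and 3 labelled mKO, the latter from mice in which StarD7, a lipid transfer protein that serves mitochondria, was targeted. Strain, age, sex, the deleted exons and the driver of the deletion are not given in the sources used here. The series text counts 3 mice in each group, but no label ties a library to an animal, so the p-values below measure the spread between these libraries. Values are TPM, a transcript level per gene length that sums to the same total in each library.

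As background, the mitochondrial pyruvate carrier admits pyruvate, and pyruvate dehydrogenase commits it to oxidation. Kinases (PDK1 to PDK4) switch that complex off by phosphorylation and phosphatases (PDP1 and PDP2) switch it back on, which in muscle sets the choice between glucose and fat. Soleus is an oxidative muscle rich in these enzymes, and its PDK4 is known for its response to fasting and to fatty acids through PPAR and FoxO factors.

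All 34 genes were expressed in every library and all reached the filter for testing, 1 TPM or more in at least 3 libraries, as did 12301 genes in all. The reads recovered from the TPM came to between 42928382 and 51287715 per library, and gave whole reads for each of the 34 genes. The targeted gene, Stard7, stood at 87.5, 95.4 and 94.99 TPM in WT replicates 1 to 3 and at 21.8, 21.3 and 34.6 TPM in mKO replicates 1 to 3 (log2 fold change −1.83, SE 0.16, adjusted p = 0.00585, limma). Testing every listed gene, whatever its level, raised its limma adjusted p to 0.0858, and leaving WT replicate 2 out of the fit raised it to 0.0703, so both settings ended this call. The 5 genes taken as a check of the tissue, Acta1, Ckm, Mb, Myh7 and Myh2, summed to 64099 to 68173 TPM in WT and to 57162 to 58868 TPM in mKO. The share of TPM held by mitochondrially encoded genes was 43.6% ± 1.49 over the WT libraries and 48.0% ± 1.05 over the mKO libraries (SD, n = 3 each), so the sum left for nuclear genes was lower in mKO by 0.12 on the log2 scale. Of 8 fast fibre markers, 8 lay below 0 and 3 were called lower, and their summed level was 25948 to 31229 TPM in WT and 14634 to 20592 TPM in mKO. Of 7 slow fibre markers 6 lay above 0 and none was called, and their sums overlapped (14772 to 18990 and 15617 to 21576 TPM). None of these markers was at 0 throughout. The part of the fibre types and of the mitochondrial share in the values below was not tested, and in bulk RNA fewer cells of a type and less RNA per cell cannot be told apart.

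None of the 34 genes passed the test between genotypes. By limma-trend on log2(TPM + 1), with Benjamini-Hochberg adjustment over all genes, 0 of 34 were called at an adjusted p below 0.05, against 0.520% of all tested genes. The adjusted p-values ran from 0.16 for Idh3g to 0.993 for Pdk4. At an unadjusted p under 0.05 there were 9 members, 26.5% of them, of which 8 were lower in mKO, against 10.7% of all tested genes (6.90% lower in mKO). With mitochondrially encoded genes left out there were 6 members, 17.6%, all higher in mKO, against 19.3% of all genes. With median-of-ratios or upper-quartile scaling there were 8, or 23.5%, against 11.3% and 11.4% of all genes. The same test family on recovered reads (limma-voom) also called 0 members, against 0.821% of the 11204 genes it tested. It gave 6 of 34 an unadjusted p under 0.05, against 11.5% of all genes. For TPM as deposited, the differences are bounded: for 32 of 34 genes the 95% interval of the log2 fold change lay within 0.5 of 0. Pdk3 and Pdk4 were the exceptions. With mitochondrially encoded genes left out, the interval of Pdp1 also reached beyond, to 0.576, and these intervals do not include the effect of the scaling.

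The values leaned downward by small amounts. The log2 fold change was below 0 for 26 of 34 genes, or 76.5%, against 55.1% of all tested genes, and the median was −0.08 against −0.01 over all. In 14 genes, or 41.2%, all 3 mKO libraries lay below all 3 WT libraries, against 10.3% of all tested genes. Only Pdk3 had all mKO libraries above all WT libraries, or 2.94% of members against 5.67% of all genes, and in either direction the share was 16.0% of all genes. Without WT replicate 1, which had the lowest WT values for many of these genes, the groups of 24 members did not overlap, in place of 15. That is 70.6% of members against 27.9% of all genes tested in that fit, a background that is higher because fewer libraries are compared. Without WT replicate 2 or 3 the groups of 18 and 16 members did not overlap (22.7% and 27.6% of all genes), and without mKO replicate 1, 2 or 3 those of 15, 16 and 17 members (25.2%, 27.5% and 26.9% of all genes).

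This lean depended on the scaling. With mitochondrially encoded genes left out and the rest rescaled to the same sum, the median of the members was 0.04 and that of all genes 0.09. In that setting 11 of 34 members were below 0 (32.4%, against 22.8% of all genes). Idh3g and Sdhaf3 were then the only members with all mKO libraries below WT, 5.88% of members against 2.71% of all genes. Another 7 lay wholly above WT (Pdk1, Pdk3, Pdp2, Idh2, Suclg2, Sdhaf2 and Sdhaf4), 20.6% against 23.9% of all genes, a share near the background. With median-of-ratios scaling 6 members lay wholly below (17.6% against 8.85%) and 3 wholly above (8.82% against 8.46%). With upper-quartile scaling these numbers were 8 (23.5% against 10.5%) and 2 (5.88% against 6.95%). The members summed to 8559 ± 275 TPM in WT and 8222 ± 137 TPM in mKO, with no overlap, yet as a share of the nuclear TPM they made up 1.52% ± 0.0289 and 1.58% ± 0.0275 (SD, n = 3), also with no overlap but in the opposite order.

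**Figure D1:**
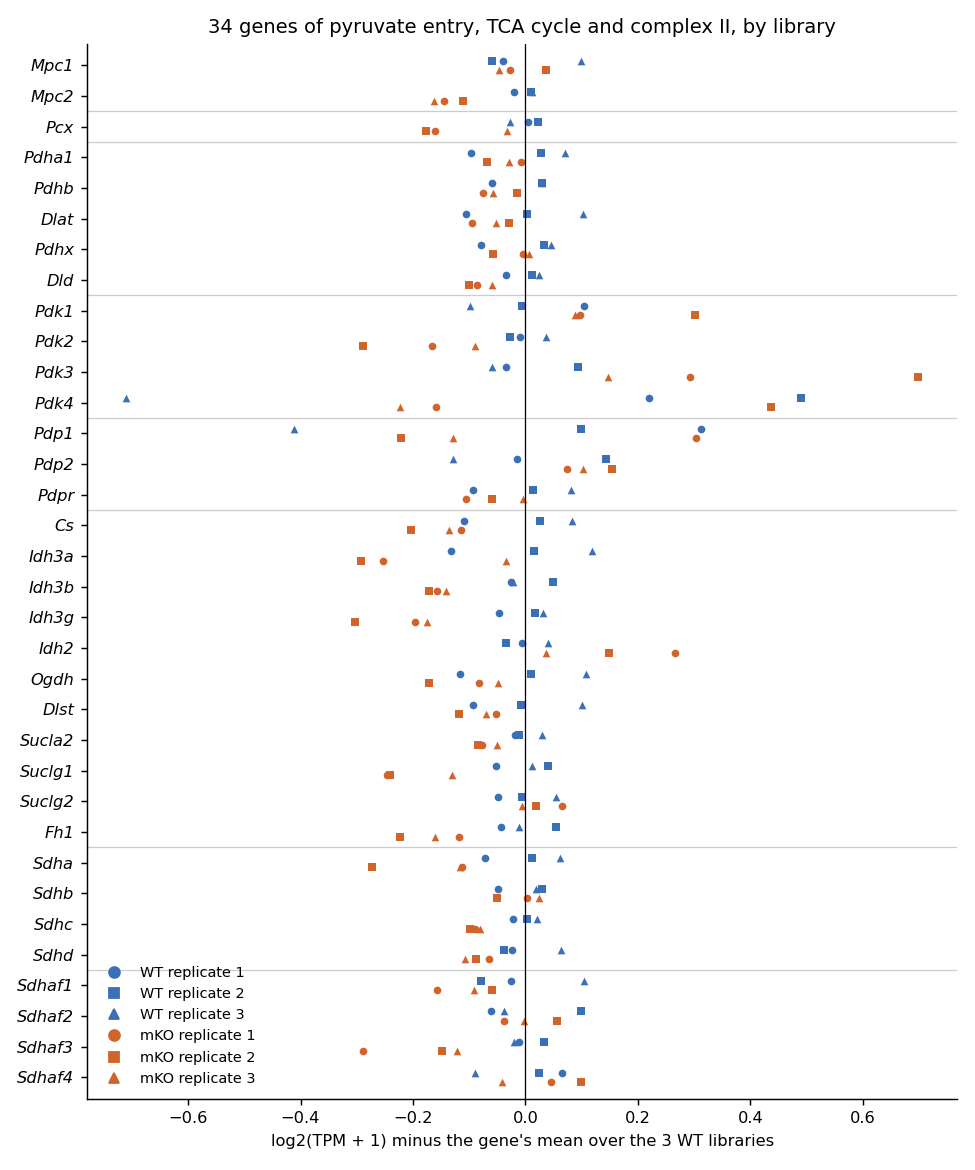
Each point is 1 library of 1 gene, as log2(TPM + 1) minus the gene's mean over the 3 WT libraries (x axis), with genes in rows grouped by role, WT in blue and mKO in orange. Most genes lie within 0.3 of 0 in every library, while Pdk4, Pdp1 and Pdk3 spread most.

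**Figure D2:**
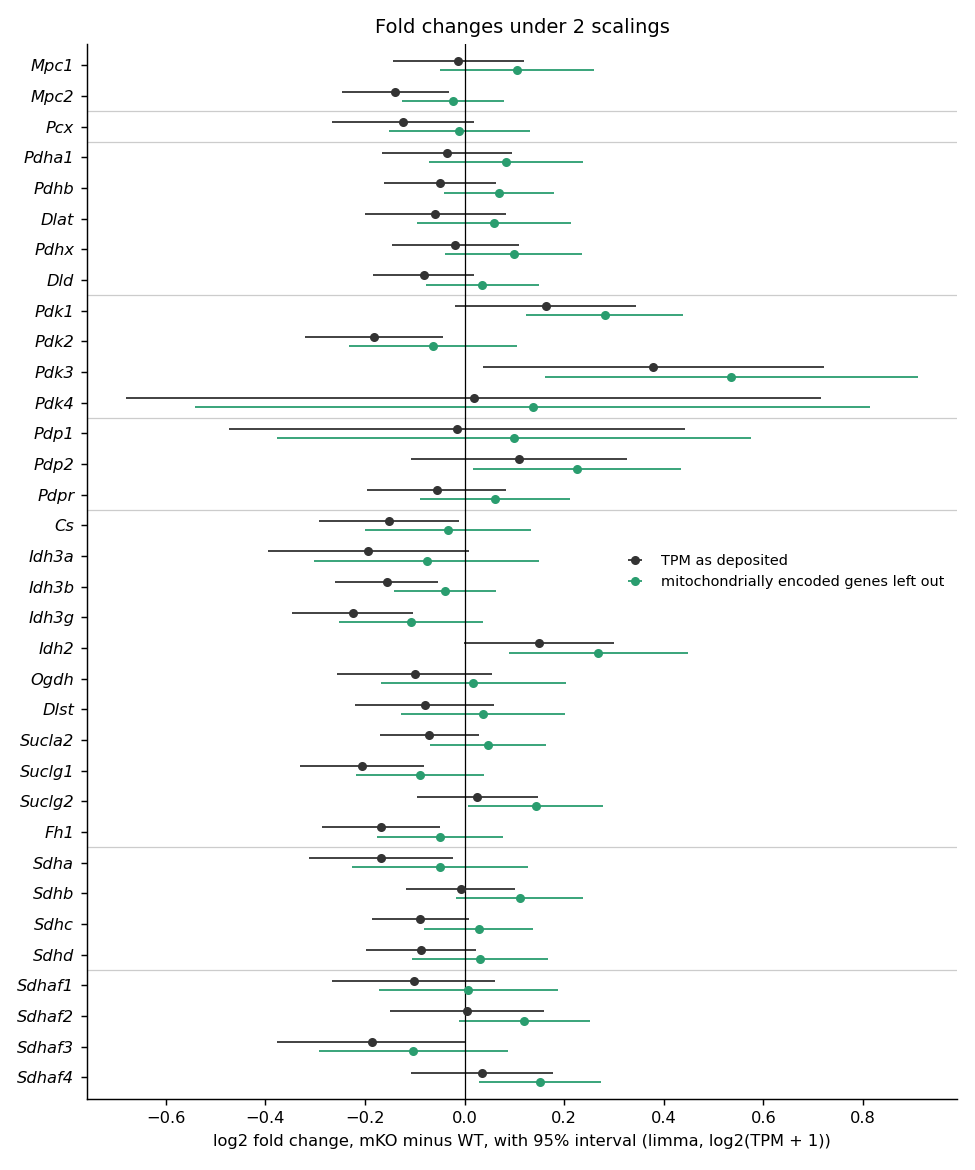
Points are log2 fold changes, mKO minus WT, with 95% intervals from limma, for TPM as deposited (black) and with mitochondrially encoded genes left out (green). The rescaling moved the member median from −0.08 to 0.04, while Idh2, Pdk1 and Pdk3 stayed above 0 and Idh3g and Suclg1 below it.

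Of the pyruvate carrier, Mpc2 was lower in every mKO library, while Mpc1 overlapped between genotypes. The carrier is built from these 2 small membrane proteins, each of which needs the other. Mpc2 stood at 64.8, 66.2 and 66.2 TPM in WT and at 59.4, 60.8 and 58.6 TPM in mKO. The mKO libraries all lay below the WT libraries, with 90.7% of the WT mean (log2 fold change −0.14, SE 0.05, adjusted p = 0.323). Mpc1 stood at 329.5, 325 and 363 TPM in WT and at 333, 347 and 328 TPM in mKO, groups that overlap (−0.01, SE 0.06, adjusted p = 0.968). In TPM, Mpc1 stood 5.16 ± 0.290 times as high as Mpc2 in WT and 5.64 ± 0.0653 times in mKO (SD, n = 3 each). TPM divides by gene length, here 2082 exon bases for Mpc1 and 7344 for Mpc2 in GENCODE M21. In reads the gap was smaller, at 15866 for Mpc1 and 11000 for Mpc2 in WT replicate 1. The ratio of each mKO library was above that of each WT library, the highest WT value being 5.48 and the lowest mKO value 5.60. Such a ratio within a library does not change with its scaling, and it was described, not tested.

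Pyruvate carboxylase, Pcx, which tops up the cycle with oxaloacetate, was a low-level member at 21.8, 22.1 and 21.3 TPM in WT and 19.3, 19.1 and 21.2 TPM in mKO. All mKO libraries lay below WT, mKO replicate 3 only just (log2 fold change −0.12, SE 0.06, adjusted p = 0.546). Adipocytes also use this enzyme, and the 6 adipocyte markers summed to 110.3 to 247 TPM in WT and 113 to 171 TPM in mKO, none at 0 and none called, with all 6 below 0. Their part in the level of Pcx was not tested.

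The pyruvate dehydrogenase complex itself held no gene near the threshold. Pdha1 and Pdhb encode the decarboxylating E1 part, Dlat the E2 core, Dld the E3 dehydrogenase that 2-oxoglutarate dehydrogenase shares, and Pdhx the protein that binds E3 to the core. Their WT means ran from 55.7 TPM (Pdhx) to 644 TPM (Pdha1), and their log2 fold changes from −0.08 to −0.02, with adjusted p-values from 0.576 to 0.944. Only for Dld did the groups not overlap, at 210.5, 217 and 219 TPM in WT and 203, 201 and 207 TPM in mKO. Pdha1 stood 3.51 ± 0.0936 times as high as Pdhb in WT and 3.54 ± 0.153 times in mKO, with overlapping groups. Pdha2, the testis copy of Pdha1, was listed at 0 in 5 of the 6 libraries and at 0.0415 TPM in mKO replicate 1.

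Among the 4 pyruvate dehydrogenase kinases, Pdk4 and Pdk2 were the abundant ones. Pdk4 made up 67.0% ± 10.1 of the summed kinase TPM in WT and 69.4% ± 5.96 in mKO, and Pdk2 made up 28.4% ± 9.04 and 25.4% ± 5.58 (SD, n = 3 each). Pdk1 came to 4.40% ± 1.05 and 4.99% ± 0.410, and Pdk3 to 0.129% ± 0.0293 and 0.193% ± 0.0223. The share of Pdk3 alone did not overlap between groups, and those of the other kinases did.

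Pdk4, the kinase raised in fasting, stood at 1023, 1235 and 537 TPM in WT and at 787, 1190.2 and 753 TPM in mKO. WT replicate 2 and mKO replicate 2 were high and WT replicate 3 was low, so the spread within each genotype was larger than the gap between the means (log2 fold change 0.02, SE 0.30, adjusted p = 0.993). The 95% interval ran from −0.68 to 0.72, the widest of the members. It is not adjusted for the number of genes tested, so a change larger than that could also have missed the threshold. Without WT replicate 3 the log2 fold change was −0.34, and without mKO replicate 2 it was −0.19. The SD within genotypes on the log2(TPM + 1) scale was 0.51, larger than that of 99.2% of tested genes, although 41116 to 90959 reads stood behind each value.

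Of the other genes known as PPAR or FoxO targets, Ucp3 and Angptl4 had an order of libraries like that of Pdk4. Ucp3, a mitochondrial carrier of fat-burning muscle, stood at 53.8, 61.4 and 31.0 TPM in WT and at 31.6, 59.2 and 31.5 TPM in mKO. Angptl4, a secreted inhibitor of lipoprotein lipase, stood at 7.11, 5.01 and 1.32 TPM in WT and at 2.99, 7.72 and 4.05 TPM in mKO. As with Pdk4, WT replicate 3 was the lowest library for both, and WT replicates 1 and 2 and mKO replicate 2 were the 3 highest. These genes were singled out after their values were seen, and the likeness was not tested. It was not shared by all targets. Cpt1b, an enzyme of fatty acid entry into mitochondria, was lowest in mKO replicate 3 at 373 TPM and stood at 421 TPM in WT replicate 3. Lpl, lipoprotein lipase, was lowest in mKO replicate 3 at 539 TPM. Of the 10 targets listed, 9 were tested and none was called. Acot1 (−0.41, adjusted p = 0.551), Cd36 (0.08, adjusted p = 0.678) and Plin2 (0.10, adjusted p = 0.765) had the lowest unadjusted p. Of 9 factors known to act on Pdk4, none was called, and Nr4a3 (−0.38, adjusted p = 0.561), Foxo1 (−0.35, adjusted p = 0.596) and Cebpb (−0.14, adjusted p = 0.841) came first. Ppara, which senses fatty acids, stood at 14.5, 27.3 and 33.02 TPM in WT and 17.0, 21.9 and 22.8 TPM in mKO, and was highest in the WT library in which Pdk4 was lowest.

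Pdk2, the kinase found most widely across tissues, stood at 362, 357 and 374 TPM in WT and at 324, 298 and 342 TPM in mKO. All mKO libraries were below all WT libraries, with a mean at 88.3% of WT (log2 fold change −0.18, SE 0.06, adjusted p = 0.319). Pdk1, known as a target of the hypoxia factor HIF-1, stood at 61.4, 56.9 and 53.3 TPM in WT and at 61.2, 70.6 and 60.8 TPM in mKO. Its groups overlapped through WT replicate 1 (0.16, SE 0.08, adjusted p = 0.529). Pdk3 was the rarest member, at 1.62, 1.87 and 1.58 TPM in WT and 2.29, 3.35 and 1.97 TPM in mKO. All mKO libraries were above WT, with a mean at 150.4% of the WT mean, but mKO replicate 2 stood well above the other mKO libraries (0.38, SE 0.15, adjusted p = 0.412). No more than 187 reads stood behind any value of Pdk3.

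**Figure D3:**
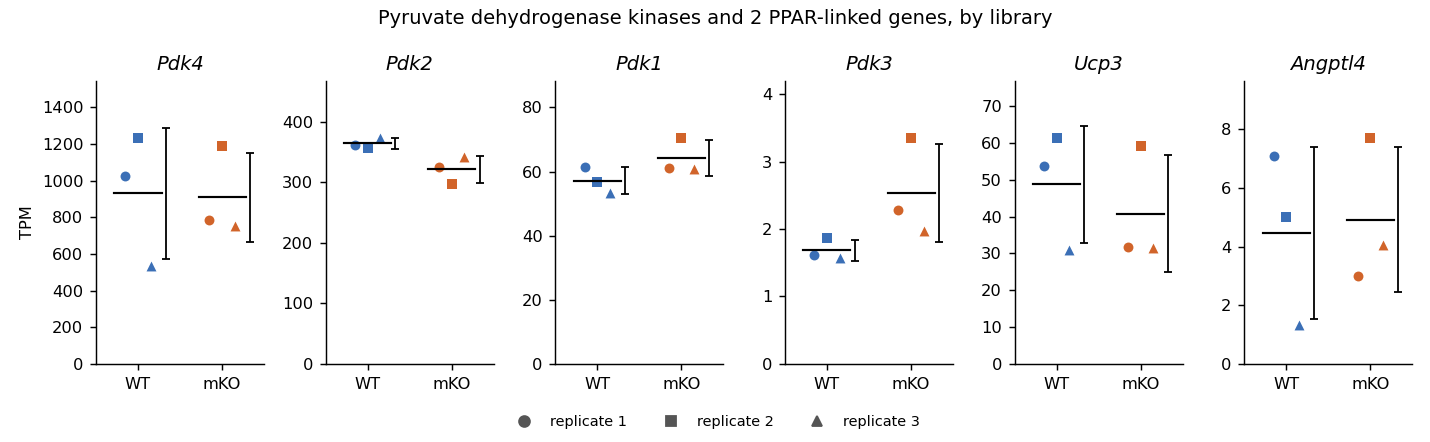
TPM (y axis, from 0) of the 4 kinases and of Ucp3 and Angptl4 in each library, with replicates marked by shape, group means as lines and SDs as bars. Pdk4, Ucp3 and Angptl4 are lowest in WT replicate 3 within WT and highest in mKO replicate 2 within mKO, while Pdk2 is lower in all 3 mKO libraries.

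The phosphatases were less abundant than the main kinases. Pdp1, the calcium-stimulated phosphatase of muscle, stood at 24.6, 21.1 and 14.5 TPM in WT and at 24.5, 16.7 and 17.9 TPM in mKO, with overlapping groups (−0.02, SE 0.20, adjusted p = 0.990). Its spread within genotypes was larger than that of 96.0% of tested genes, and WT replicate 3 was its lowest library, as for Pdk4. Pdp2 lay between 3.05 and 3.93 TPM over the 6 libraries (0.11, adjusted p = 0.748), and the regulatory subunit Pdpr between 70.6 and 80.4 TPM (−0.06, adjusted p = 0.811).

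The TCA enzymes included the members with the lowest p-values. Of 11 genes, 9 lay below 0, against 55.1% of all tested genes. In 6, all mKO libraries were below WT, against 10.3% of all genes, and 5 had an unadjusted p under 0.05 (limma-trend), against 10.7%. With mitochondrially encoded genes left out, only Idh3g of these 11 lay wholly below WT, and Idh2 and Suclg2 lay wholly above it. In that setting 2.71% of all genes lay wholly below and 23.9% wholly above. Cs encodes citrate synthase, which brings acetyl-CoA into the cycle. The activity of that enzyme, not measured here, serves as a common gauge of mitochondrial content. Cs RNA stood at 359.9, 395 and 411 TPM in WT and 359, 337 and 353 TPM in mKO. The highest mKO library lay just under the lowest WT library (−0.15, SE 0.06, adjusted p = 0.428). Csl, a copy of Cs to which shared reads could be counted, was listed at 0.333 TPM or less.

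The 3 genes of the NAD-dependent isocitrate dehydrogenase were all lower in mean in mKO, by small amounts. Idh3g, a regulatory subunit, stood at 278, 290.2 and 293 TPM in WT and at 250.2, 232 and 254 TPM in mKO, with no overlap and a mean at 85.6% of WT (−0.22, SE 0.05, adjusted p = 0.16). Idh3b, the other regulatory subunit, stood at 316, 333 and 317 TPM in WT and at 289, 286 and 292 TPM in mKO, with no overlap (−0.16, SE 0.04, adjusted p = 0.242). Idh3a, the catalytic subunit, stood at 206, 228 and 245 TPM in WT and at 189, 184 and 220.4 TPM in mKO, where mKO replicate 3 overlapped the WT range (−0.19, SE 0.09, adjusted p = 0.483). Idh2, the NADP-dependent mitochondrial enzyme, leaned the other way, at 1032, 1012 and 1066 TPM in WT and 1246, 1148 and 1063 TPM in mKO (0.15, SE 0.07, adjusted p = 0.469). Of its mKO libraries, replicate 3 lay within the WT range. Myh7, the slow myosin heavy chain, was also lowest in mKO replicate 3 among the mKO libraries, at 4146, 4281 and 2889 TPM in mKO replicates 1, 2 and 3, and in WT at 3532, 3253 and 2688 TPM. Its part in the level of Idh2 was not tested. The ratio of Idh2 to Idh3a, a pair chosen after the values were seen, was 5.01, 4.43 and 4.35 in WT and 6.58, 6.23 and 4.82 in mKO.

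Of the succinyl-CoA ligase genes, the shared alpha subunit was lower in value. Suclg1 stood at 113, 121 and 119 TPM in WT and at 98.9, 99.3 and 107 TPM in mKO, with no overlap (−0.21, SE 0.05, adjusted p = 0.207). Sucla2, the ATP-forming beta subunit, had a WT mean of 269.8 ± 4.81 TPM and an mKO mean of 257 ± 3.32 TPM, with no overlap (−0.07, adjusted p = 0.633), and Suclg2, the GTP-forming one, had means of 52.6 ± 1.95 and 53.6 ± 1.40 TPM (0.03, adjusted p = 0.912). Suclg2 relative to Sucla2 was 0.191, 0.196 and 0.199 in WT and 0.216, 0.210 and 0.201 in mKO, so that the groups did not overlap, by a narrow margin. Fh1, fumarase, stood at 181, 194 and 185 TPM in WT and at 172, 159.8 and 167 TPM in mKO, also with no overlap (−0.17, SE 0.05, adjusted p = 0.276). Ogdh and Dlst, the E1 and E2 parts of 2-oxoglutarate dehydrogenase, overlapped between groups, at −0.10 and −0.08 (adjusted p = 0.667 and 0.707).

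Complex II has 4 subunits, all nuclear: the flavoprotein Sdha and the iron-sulphur protein Sdhb form the catalytic head, and Sdhc and Sdhd anchor it in the inner membrane. Sdha stood at 535, 567 and 587 TPM in WT and at 520.3, 465 and 519 TPM in mKO. All mKO libraries were below WT, and the mean was 89.1% of WT (−0.17, SE 0.06, adjusted p = 0.386). Sdhb, by contrast, stood at 483, 510.3 and 507 TPM in WT and 501, 483 and 509 TPM in mKO, groups with nearly the same range (−0.01, SE 0.05, adjusted p = 0.977). Sdhc was among the steadiest genes in the data, at 271, 275 and 279 TPM in WT and 258, 257 and 259.8 TPM in mKO, with an SD within genotypes below that of all but 0.171% of tested genes. Its groups did not overlap (−0.09, SE 0.04, adjusted p = 0.512). Sdhd, at 421, 416 and 447 TPM in WT and 409, 402 and 397 TPM in mKO, did not overlap either (−0.09, SE 0.05, adjusted p = 0.585). Of all tested genes, 10.3% lay wholly below WT in this way. With mitochondrially encoded genes left out, or with median-of-ratios scaling, no subunit of complex II lay wholly below WT. With upper-quartile scaling only Sdhc did. The ratio of Sdha to Sdhb was 1.11, 1.11 and 1.16 in WT and 1.04, 0.964 and 1.02 in mKO, so that every mKO library was below every WT library. That difference of −0.12 in the ratio does not change with scaling, and it was not tested.

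The 250 bases before the start sites of Sdha, Sdhb and Sdhd are shown because Sdha and Sdhb, whose products meet in the catalytic head, differed in their values, while Sdhd had both of the mitochondrial motifs searched. They are from RefSeq's annotation of GRCm38.p6, an older build than the GRCm39 named by the submitters, and read 5′ to 3′ on the strand of the gene. Capitals mark matches to the motif of NRF1, a regulator of nuclear genes for mitochondria.
Sdha (chr13:74350241-74350490, minus strand): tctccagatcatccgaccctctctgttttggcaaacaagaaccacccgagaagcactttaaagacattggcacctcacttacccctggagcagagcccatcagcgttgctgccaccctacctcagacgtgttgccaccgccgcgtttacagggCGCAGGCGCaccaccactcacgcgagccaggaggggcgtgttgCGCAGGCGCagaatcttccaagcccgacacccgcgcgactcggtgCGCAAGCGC
Sdhb (chr4:140961021-140961270, plus strand): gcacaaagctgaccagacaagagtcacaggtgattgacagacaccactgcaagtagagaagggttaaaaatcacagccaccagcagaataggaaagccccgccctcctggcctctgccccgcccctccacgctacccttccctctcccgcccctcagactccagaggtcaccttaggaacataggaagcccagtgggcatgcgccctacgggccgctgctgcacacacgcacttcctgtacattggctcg
Sdhd (chr9:50603850-50604099, minus strand): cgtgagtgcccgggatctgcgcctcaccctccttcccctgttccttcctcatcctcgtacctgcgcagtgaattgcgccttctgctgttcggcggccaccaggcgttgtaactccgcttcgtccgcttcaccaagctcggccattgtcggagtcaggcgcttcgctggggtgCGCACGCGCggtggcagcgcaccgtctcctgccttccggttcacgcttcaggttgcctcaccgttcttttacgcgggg

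The NRF1 motif was searched as GCGCNTGCG on both strands, N being any base, in windows from 250 bases before to 50 bases after each start. Matches in Sdha began 97, 54 and 9 bases before the start, and that in Sdhd began 78 bases before it, while the window of Sdhb held none. Of the 31 members with an entry, 9 held a match (Dld, Idh3g, Ogdh, Pdha1, Sdha, Sdhaf3, Sdhaf4, Sdhd and Sucla2), or 29.0%, against 7.12% of the 27025 genes with a window. This form was chosen after a longer one, with 1 more C at the 3′ end, had been searched, which matched 6 of the 31 members (19.4%) and 5.19% of genes. Pdp1, Sdhc and Idh3a had no entry. The motif of the estrogen-related receptors, TNAAGGTCA, was found in Sdhd alone, after the start, or 3.23% of members against 1.43% of genes. The FoxO motif GTAAACA was found in none of the member windows, that of Pdk4 included, and in 4.05% of genes. The member windows were richer in G and C than others, with a median of 61.2% against 52.7%, and the comparison is not matched for that. A match is a description of letters, not of binding, and any part of it in the levels of Sdha, Sdhb or other members was not tested.

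The assembly factors of complex II, small proteins that insert its flavin and iron-sulphur clusters, covered a wide range of levels. In TPM Sdhaf4 was the highest, at a WT mean of 91.7 ± 5.08, and Sdhaf3 the lowest, at 4.17 ± 0.102. This order depends on gene length, which is 874 exon bases for Sdhaf4 and 7195 for Sdhaf2. Sdhaf2 had more reads than Sdhaf4 in every library, with 2542 and 1938 in WT replicate 1. Sdhaf3 lay below WT in all mKO libraries, at 4.12, 4.29 and 4.10 TPM in WT and 3.23, 3.66 and 3.75 TPM in mKO, and its mean of 85.1% of WT was the lowest among the members (−0.19, SE 0.08, adjusted p = 0.471). Sdhaf1, Sdhaf2 and Sdhaf4 overlapped between groups, with log2 fold changes of −0.10, 0.00 and 0.03 and adjusted p-values of 0.677, 0.991 and 0.901.

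**Figure D4:**
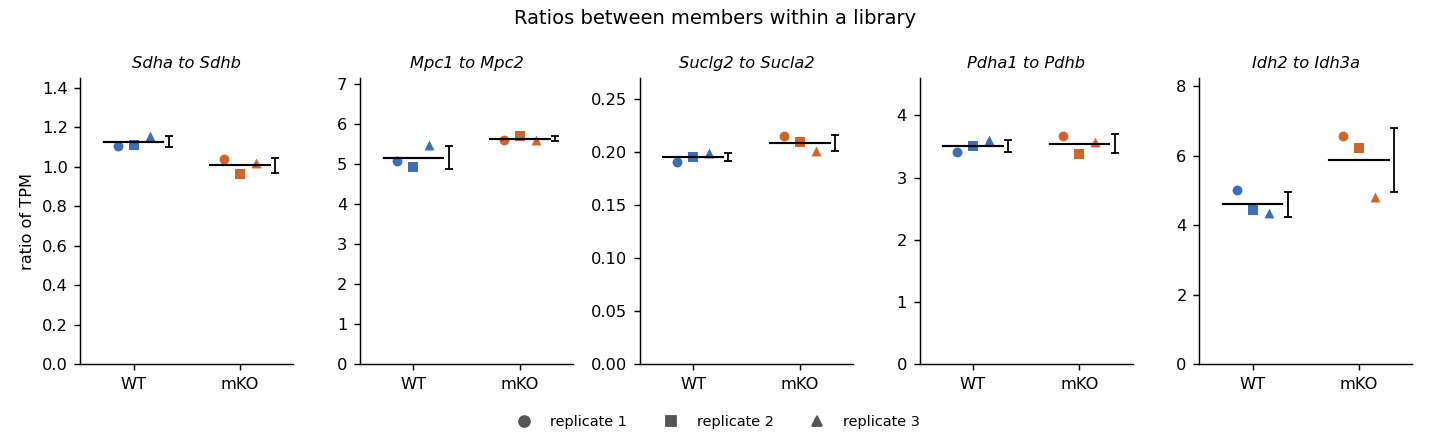
Ratios of TPM between 2 genes of the same library (y axis, from 0), with replicates marked by shape, group means as lines and SDs as bars. The ratio of Sdha to Sdhb is lower, and those of Mpc1 to Mpc2 and of Suclg2 to Sucla2 are higher, in every mKO library than in every WT library, while the other 2 pairs overlap.

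The remaining enzymes tied to the cycle held no called gene either. Of 15 linked enzymes tested, 7 lay below 0 and 8 above, with a median of 0.01. Mdh2, the mitochondrial malate dehydrogenase (−0.19, adjusted p = 0.304), and Glud1, glutamate dehydrogenase (−0.12, adjusted p = 0.392), were among the 3 with the lowest unadjusted p. For both of them all mKO libraries were below WT. Oxct1, which starts the use of ketone bodies, stood at 426, 490.4 and 512 TPM in WT and 549, 544 and 501 TPM in mKO, with overlap (0.16, adjusted p = 0.511). It was singled out after its value was seen. Nnt is not analysed here.

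The supply of lipoic acid and thiamine, cofactors of pyruvate and 2-oxoglutarate dehydrogenase, held no called gene among 10 tested, with a median of −0.04. Lipt1, the lipoyltransferase, was higher in all mKO libraries, at 4.74, 4.92 and 4.76 TPM in WT and 7.14, 5.98 and 5.44 TPM in mKO (0.30, SE 0.10, adjusted p = 0.31). Isca1, an iron-sulphur cluster protein, was lower in all of them (−0.12, adjusted p = 0.5), as was Bola3, which delivers such clusters to lipoate synthesis (−0.09, adjusted p = 0.585).

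Overlapping genes could have shared reads with a few members, since the strand setting of the counting is not stated. Exons of 6 members overlap those of a gene on the opposite strand in GENCODE M21. The overlap covered 23.1% of the exon bases of Mpc1, 16.1% of Pdha1 and 12.7% of Sdhaf4, with partners at 0.249 TPM or less, and 3.36% or less of Pdpr, Sdhaf2 and Idh3b. Of the members with the largest spread within genotypes, Pdk3 had few reads, at 88 to 187 per library, and Pdp1 had 1428 to 2569. Pcx, with 1879 to 2393 reads per library, had a spread above that of only 15.4% of tested genes. Sucla2 and Mpc2, with 20787 to 24561 and 8607 to 11000 reads per library, varied less than all but 0.602% and 0.667% of tested genes, while Pdk4 had more reads than either and the largest spread of the 34 genes.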

How the data were processed

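The 34 genes and the lists were chosen with earlier results of these data known. Per the labels' protocols, libraries were directional and poly(A)-selected. Each library's deposited table holds TPM, made by the authors, for 43074 gene names, with genome build GRCm39 per the submitters' processing notes. Aligner, counter and annotation are not given in the sources used here. TPM sums to a constant, so abundant genes that rise lower the values of others. The labels give each library's group and replicate number.

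The main test was limma-trend, from limma 3.58.1 under R 4.3.3, fitted to log2(TPM + 1), a scale that understates changes of low genes, with genotype as the only term. P-values were adjusted by Benjamini-Hochberg over 12301 genes, with a threshold of 0.05. Since the unit is TPM, no count model was the main test. GENCODE M21 is an annotation of GRCm38, an older build than the GRCm39 named by the submitters. TPM times GENCODE M21 exon length, divided by the value of 1 read in each library, gave whole reads within 0.05 in all libraries for 93.1% of 22729 genes. Of these values 58.6% were even, so mates may have been counted singly. These reads served for depth and limma-voom. Libraries of a group differed by more than counting error (chi-square over degrees of freedom, 19.6 to 37.6). The test was checked on simulated data.

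Every member is accounted for. Per-library values follow a rule set with the design: the 6 lowest p, the 3 largest rises and falls, the kinases, complex II, Cs, Mpc1, Mpc2 and Pcx, and up to 3 genes of each other list. One gene that this rule would name is not reported here. Values of other genes were added after they were seen (Dld, Pdp1, Ucp3, Angptl4, Cpt1b, Lpl, Ppara, Oxct1, Sdhaf3 and Myh7). Marker lists of endothelium, fibroblasts, macrophages and red blood cells held no called gene, with summed TPM overlapping between groups except for endothelium (193 to 199 in WT, 187 to 189 in mKO). Alternatives were other filters, pseudocounts and scalings, a replicate block, limma-voom and each library left out.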

Additional observations from a re-analysis of the deposited data

How the results depend on the processing

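The call of 0 members held in all 14 other settings run, and the number of all genes called was 64 and moved to 6 with no filter, 41 with mitochondrially encoded genes left out (51.2% of calls higher, in place of 18.8%), 41 with median-of-ratios scaling, 21 with the replicate block, and 4 to 94 when 1 library was left out. The cause was not tested. The median of the members, −0.075, was 0.042 with mitochondrially encoded genes left out and −0.024 by limma-voom. The count of members with groups that did not overlap, 15, was 9 with mitochondrially encoded genes left out, 9 with median-of-ratios scaling, and 15 to 24 when 1 library was left out (44.1% to 70.6% of members, against 22.7% to 27.9% of all genes in those fits).

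Replicate numbers were not taken to pair the libraries, since the correlation of deviations of same-numbered libraries was 0.09, 0.05 and 0.13, although each WT library correlated best with its own number. With the replicate block 0 members were called (lowest adjusted p = 0.202, Idh3g).

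Signs near 0 changed as follows. With mitochondrially encoded genes left out, which raises nuclear genes about alike, the log2 fold changes became Sdhaf1 0.00745, Ogdh 0.0174, Sdhc 0.0282, Sdhd 0.0308, Dld 0.0354, Dlst 0.0371, Sucla2 0.0471, Dlat 0.0587, Pdpr 0.0607, Pdhb 0.0686, Pdha1 0.0826, Pdhx 0.0985, Pdp1 0.0994, Mpc1 0.105 and Sdhb 0.11. By limma-voom they were Pdhb 0.00282, Pdha1 0.0166, Pdp1 0.03, Pdhx 0.0334, Mpc1 0.0394 and Sdhb 0.0443, and with median-of-ratios scaling Pdp1 0.00169, Mpc1 0.00493 and Sdhb 0.00993. When 1 library was left out, the values that crossed 0 ranged from −0.042 to 0.0369 for Mpc1, −0.0577 to 0.00464 for Pdhx, −0.336 to 0.263 for Pdk4, −0.221 to 0.14 for Pdp1, −0.0321 to 0.0139 for Sdhb, −0.0254 to 0.0543 for Sdhaf2 and −0.0105 to 0.0725 for Sdhaf4. The mKO minus WT difference in the kinase shares ranged from −3.33 to 6.26 percentage points for Pdk4, turning negative without WT replicate 3 (−3.33) or mKO replicate 2 (−1.03), and from −6.43 to 2.10 for Pdk2, turning positive without WT replicate 3 (2.10) or mKO replicate 2 (0.146). For Pdk1 it ranged from 0.111 to 1.15. The ratio of Pdha1 to Pdhb ranged from −0.0306 to 0.119, negative without WT replicate 1 (−0.00958) or mKO replicate 1 (−0.0306). The summed TPM difference, −337, ranged from −424.9 to −179, the latter without WT replicate 2. The differences for Sdha to Sdhb (−0.134 to −0.0962), Mpc1 to Mpc2 (0.354 to 0.638), Suclg2 to Sucla2 (0.0103 to 0.0176) and Idh2 to Idh3a (0.931 to 1.81) kept their sign. With 3 libraries in each group, the values within a gene's interval could not be told apart.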
